A study of Homo sapiens with 3 samples.

Results

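The genes described here are 42 genes of glycolysis and of the response to low oxygen, grouped by their known functions in a list drawn up with earlier results of these data known. They were compared with all 20162 protein-coding genes of the annotation for binding of CRY1, a cryptochrome that represses transcription in the circadian clock. CRY1 was mapped by chromatin immunoprecipitation and sequencing in C4-2 cells, an established castration-resistant human prostate cancer line. All 3 samples were labelled as vehicle (Veh), an agent the labels do not name further, and the cells were kept for 24 h before harvest in medium that contained hormone. There were 2 immunoprecipitated libraries and 1 input library, and the authors called peaks on both replicates together. The resulting list held 2551 peaks, and the 2549 placed on an autosome or on chromosome X were used. A gene was counted as bound at its promoter when the summit of a peak, the base with the highest read pileup, lay within 5 kb of any annotated transcription start site (TSS). A wider criterion was a summit within 50 kb of the gene body. Fold enrichment, the authors' ratio of the pileup at the summit to the local background, measures peak strength. Whether the input library served as the control in this ratio was not given in the sources used here. Because the call was pooled, no peak has a replicate error and no test between groups was run. The read depth behind each peak is unknown, and the intervals given are Wilson 95% intervals that cover the counting of genes or summits only. The identity of the cells cannot be checked from a list of peaks.

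Glycolysis splits glucose into pyruvate, which cells either burn in mitochondria or reduce to lactate and export. When oxygen is short, the hypoxia-inducible factors raise many of the enzymes and transporters of this route, together with genes for angiogenesis, pH control and the removal of mitochondria. These factors bind a short core, ACGTG or GCGTG. The clock activators CLOCK and BMAL1, which CRY1 represses, bind the E-box CACGTG, as MYC also does. The E-box contains ACGTG on both strands, so the sites are not independent. Each summit was therefore assigned first to the E-box class, and only a summit without an E-box was assigned to the class with a hypoxia core.

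CRY1 summits lay at the promoters of 12 of the 42 genes (28.6%, interval 17.2 to 43.6%), against 8.22% of all protein-coding genes (1657 of 20162). The 12 genes were HK2, PFKM, PFKFB3, GAPDH, ENO1, PKM, LDHA, LDHB, PDK1, SLC16A1, BNIP3 and ANKRD37. They carried 15 summits, since ENO1, LDHA and SLC16A1 had 2 each. The canonical E-box lay within 50 bp of 9 of the 15 summits and marked 9 of the 12 genes. A hypoxia core without an E-box lay at 5 summits, and 1 summit, at PKM, held neither.

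The summits with an E-box are shown first, since they make up 9 of the 15 promoter summits of the 42 genes. Each sequence runs from 50 bp before to 50 bp after the summit in GRCh37 (hg19), read 5′ to 3′ on the coding strand of the gene, with the E-box in capitals.
HK2, chr2:75062145-75062245, plus strand: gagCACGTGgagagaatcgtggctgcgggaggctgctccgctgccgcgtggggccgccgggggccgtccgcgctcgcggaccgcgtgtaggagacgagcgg
PFKM, chr12:48513482-48513582, plus strand: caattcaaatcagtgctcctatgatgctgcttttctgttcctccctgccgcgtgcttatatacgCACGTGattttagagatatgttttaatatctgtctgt
PFKFB3, chr10:6205707-6205807, plus strand: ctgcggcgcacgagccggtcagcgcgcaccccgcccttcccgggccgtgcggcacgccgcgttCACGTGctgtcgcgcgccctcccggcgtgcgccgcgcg
ENO1, chr1:8938475-8938575, minus strand: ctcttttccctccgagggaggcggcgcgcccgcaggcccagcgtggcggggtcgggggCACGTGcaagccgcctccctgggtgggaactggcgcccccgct
LDHA, chr11:18415972-18416072, plus strand: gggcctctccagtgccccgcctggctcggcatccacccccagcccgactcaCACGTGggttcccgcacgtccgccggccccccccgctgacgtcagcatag
LDHB, chr12:21810294-21810394, minus strand: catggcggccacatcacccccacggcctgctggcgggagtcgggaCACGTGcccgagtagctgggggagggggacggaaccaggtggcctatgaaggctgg
PDK1, chr2:173421539-173421639, plus strand: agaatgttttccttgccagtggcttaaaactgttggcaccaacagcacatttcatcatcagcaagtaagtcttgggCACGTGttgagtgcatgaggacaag
SLC16A1, chr1:113498952-113499052, minus strand: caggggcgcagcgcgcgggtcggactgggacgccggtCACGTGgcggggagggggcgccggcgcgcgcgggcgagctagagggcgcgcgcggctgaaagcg
ANKRD37, chr4:186317787-186317887, plus strand: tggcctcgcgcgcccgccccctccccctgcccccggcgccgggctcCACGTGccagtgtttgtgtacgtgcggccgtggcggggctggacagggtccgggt

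Of the 5 summits with a hypoxia core and no E-box, 4 are shown in the same way for contrast, with each core in capitals (ACGTG or GCGTG, or the same on the other strand, where they read CACGT or CACGC).
ENO1, other summit, chr1:8939074-8939174, minus strand: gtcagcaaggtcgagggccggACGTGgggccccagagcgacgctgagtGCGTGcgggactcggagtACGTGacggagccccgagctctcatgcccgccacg
LDHA, other summit, chr11:18417530-18417630, plus strand: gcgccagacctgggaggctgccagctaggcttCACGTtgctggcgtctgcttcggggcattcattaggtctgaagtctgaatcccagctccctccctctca
SLC16A1, other summit, chr1:113498424-113498524, minus strand: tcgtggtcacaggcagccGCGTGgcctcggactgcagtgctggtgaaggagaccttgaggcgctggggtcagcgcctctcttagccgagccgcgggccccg
BNIP3, chr10:133795642-133795742, minus strand: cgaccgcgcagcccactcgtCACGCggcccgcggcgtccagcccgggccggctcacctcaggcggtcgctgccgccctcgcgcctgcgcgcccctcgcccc

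These windows differed in how close they came to a full E-box. The core at this LDHA summit was part of CACGTT, a weaker E-box variant, whereas the cores at SLC16A1 and BNIP3 were GCGTG alone. This ENO1 summit held 3 cores, 2 of them ACGTG and 1 GCGTG. Outside these windows, the nearest E-box lay 133.5 bp from the BNIP3 summit and 217.5 bp from this ENO1 summit. For the other summits with only a core the distance was 538.5 bp at SLC16A1, 1103.5 bp at GAPDH and 1554.5 bp at LDHA. At PKM the nearest E-box lay 1983.5 bp away. Of the 9 summits with an E-box, 6 also held a hypoxia core outside it. No such share over all E-box summits is given here, so this count has no background.

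**Figure D1:**
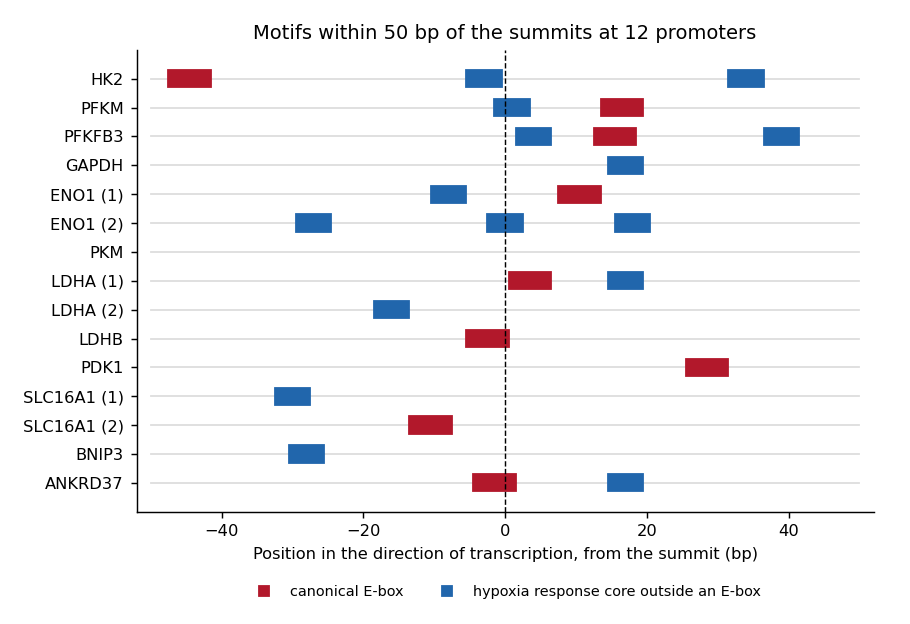
Positions of the E-box (red) and of hypoxia cores outside an E-box (blue) within 50 bp of each of the 15 promoter summits, with distance from the summit in bp along the direction of transcription. Where a gene has 2 summits they are numbered by position on the chromosome. An E-box is drawn at 9 summits, and the PKM summit has no mark.

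Among the enzymes that commit glucose to glycolysis, HK2 and PFKM were bound. HK2, the hexokinase that traps glucose in the cell and is raised in many tumors, had a peak at chr2:75062117-75062468 with a fold enrichment of 5.20. Its summit lay in the first intron, 102 bp upstream of the nearest annotated TSS. HK1, the hexokinase of most tissues, had no promoter summit, and its nearest summit was 26.6 kb from a TSS. PFKM, the muscle form of phosphofructokinase, had one of the weakest peaks (chr12:48513428-48513574, 3.57), with its summit 38 bp upstream of a TSS within the first intron of the canonical transcript. The other phosphofructokinases were not bound at their promoters: the nearest summit to a TSS of PFKP was at 13.7 kb and that of PFKL at 59.0 kb. The isomerases GPI and TPI1 and the aldolases ALDOA and ALDOC had none within 5 kb either. Of the 9 genes of upper glycolysis, 2 were therefore bound (interval 6.32 to 54.7%), a range that includes the 8.22% of all protein-coding genes.

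PFKFB3 had the highest fold enrichment among the promoter summits. It encodes the enzyme that makes fructose 2,6-bisphosphate, the main activator of phosphofructokinase. The peak (chr10:6205363-6206051) was 689 bp wide with a fold enrichment of 10.8, above 93.5% of all summits. Its summit lay 39 bp upstream of a TSS, inside an intron of another annotated transcript and more than 5 kb upstream of the TSS marked as canonical, so PFKFB3 was not counted when 1 canonical transcript per gene was used. PFKFB4, another member of this family, had no summit within 5 kb of a TSS, nor had PFKFB1 and PFKFB2.

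In lower glycolysis, where energy is recovered, 3 of 6 genes were bound (interval 18.8 to 81.2%), by peaks of middling strength. The share of all protein-coding genes was 8.22%. GAPDH, the dehydrogenase that opens this phase (fold enrichment 5.78), had the summit farthest from a TSS among the 12 genes, at 430 bp upstream. ENO1, the enolase of most tissues, had 2 peaks on either side of its main start. One (chr1:8938353-8938594, 5.74) had its summit in the first intron, 180 bp downstream of a TSS, with an E-box within 50 bp of it. The other (chr1:8938861-8939385, 4.57) was centred in the first exon of a noncoding transcript, 27 bp downstream of a start and upstream of the canonical one. An E-box also lay inside this other peak, 217.5 bp from its summit. PKM, the pyruvate kinase whose splice forms differ between tumors and normal tissue, had a peak of only 94 bp (chr15:72523723-72523816, 5.35) in a 5′ UTR exon. ENO2, PGAM1 and PGK1 had no promoter summit.

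Of the 6 genes that set the fate of pyruvate and lactate, 4 were bound (interval 30 to 90.3%), against 8.22% of all protein-coding genes. Since the list was drawn up with earlier results known, this interval cannot serve as a test against that share. LDHA, which makes lactate, had a peak at its canonical start (chr11:18415606-18416366, 8.60), with the E-box centred 3.5 bp from the summit. Its second peak (chr11:18417560-18417712, 5.01) lay in the first intron, 245 bp upstream of another TSS. LDHB, which favours the reverse reaction, was also bound (chr12:21810281-21810418, 6.22), with the E-box 2.5 bp from the summit. PDK1, the kinase that shuts pyruvate out of the mitochondrial pyruvate dehydrogenase, had the widest of these peaks, 1052 bp (chr2:173420895-173421946, 5.96), with its summit in the first intron. The nearest start there was that of the antisense transcript PDK1-AS1, at 265 bp, followed by PDK1 at 296 bp. SLC16A1, the lactate transporter MCT1, had a peak with an E-box 182 bp upstream of a TSS (chr1:113498827-113499279, 8.01) and a weaker one with a GCGTG core 142 bp downstream of a TSS (chr1:113498428-113498555, 4.60). The start of SLC16A1-AS1 lay 35 bp from the stronger summit, so the peak cannot be given to one strand. PDK3 on chromosome X had its nearest summit 5174 kb away.

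Among the hypoxia genes outside this route, 2 of 15 had a promoter summit (13.3%, interval 3.74 to 37.9%), compared with 10 of 27 genes from glucose uptake to lactate (interval 21.5 to 55.8%). The share of all protein-coding genes, 8.22%, lies within the first interval. The second interval cannot serve as a test against this share, because the list was drawn up with earlier results known. The intervals overlap, and the difference was not tested. ANKRD37, a small ankyrin-repeat gene induced by hypoxia, had a fold enrichment of 10.1 (chr4:186317593-186318099, rank 202 of 2551), and its E-box was 1.5 bp from the summit. BNIP3, a receptor for the removal of mitochondria, had a peak as weak as that of PFKM (chr10:133795614-133795740, 3.57), at 221 bp upstream. No promoter summit was found for the oxygen sensors EGLN1, EGLN3 and VHL, the secreted factors VEGFA, ADM and ANGPTL4, or the carbonic anhydrases CA9 and CA12. The same held for the mitophagy receptor BNIP3L, the collagen hydroxylases P4HA1 and P4HA2, the histone demethylase KDM3A and the mTORC1 inhibitor DDIT4. Within the route from glucose uptake to lactate, the glucose transporters SLC2A1 and SLC2A3 also had no promoter summit.

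**Figure D2:**
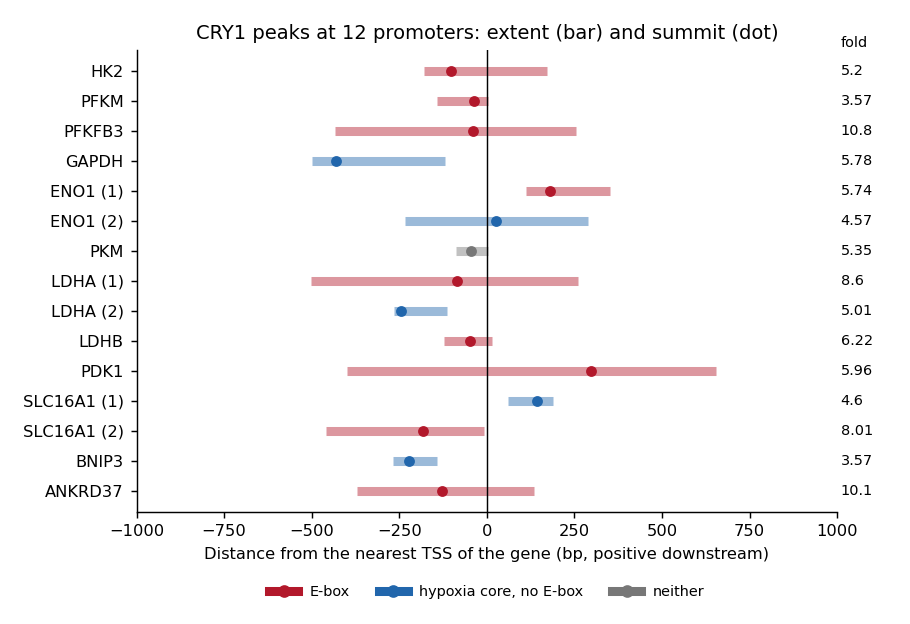
Extent (bar) and summit (dot) of the 15 promoter peaks along the distance in bp from the nearest TSS of the gene, with the fold enrichment at the right. Bar and dot are coloured by the motif class of the summit window, not of the whole peak. All summits lie within 430 bp of the nearest annotated TSS of the gene, and 11 of the 15 are upstream of that TSS.

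Promoter summits of these genes sat close to an annotated start, with distance and side taken to the nearest of all TSS of the gene. Against the canonical TSS, 4 summits lay downstream in place of upstream: HK2 (941 bp), PFKM (385 bp), LDHB (432 bp) and the second of LDHA (1470 bp). The second ENO1 summit lay 379 bp upstream in place of downstream, and the rest kept their side. All 15 lay within 500 bp of a TSS of the gene, with a median of 128 bp (range 27 to 430 bp), and for all 15 no other protein-coding gene had a nearer TSS. Over the 1772 summits within 5 kb of any protein-coding TSS, the median distance was 203 bp and the upper quartile 533 bp. The farthest summit inside the 5 kb limit was that of GAPDH at 430 bp, and the first outside it was that of GPI at 7497 bp, so a limit of 1 kb gave the same 12 genes. At 1 kb the share of all protein-coding genes was 6.66%.

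The median fold enrichment of the 15 summits was 5.74, within a range of 3.57 to 10.8 and with quartiles of 4.81 and 7.11, against 5.21 (4.34 and 6.66) at all 1772 summits near a protein-coding TSS. The upper quartile of the whole list, 6.63, was exceeded by 4 of the 15, about the share that a quartile implies. These were the E-box summits of PFKFB3, ANKRD37, LDHA and SLC16A1. The 9 summits with an E-box had a median of 6.22 (range 3.57 to 10.8), whereas the 5 with only a hypoxia core had 4.60 (range 3.57 to 5.78). The ranges overlap, and 8 of the 9 E-box summits lay above the median of the core class. Over all summits near a protein-coding TSS, the medians were 5.82 with an E-box, 5.01 with a core only and 4.85 with neither.

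**Figure D3:**
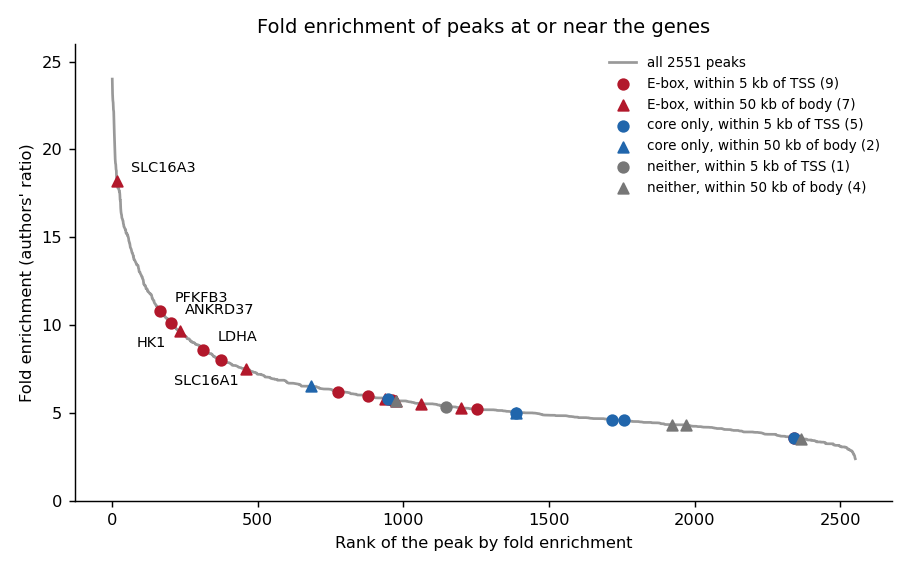
Fold enrichment of all 2551 peaks in order of rank (grey line), with the peaks at or near the 42 genes marked by motif class (colour) and by distance (circles within 5 kb of a TSS, triangles only within 50 kb of the gene body). SLC16A3 has the highest marked value, 18.2, and PFKFB3 the highest among the circles, 10.8.

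The E-box share of the 15 summits was 60.0% (interval 35.7 to 80.2%), compared with 44.8% of the 1772 summits near a protein-coding TSS (793) and 47.8% of all 2549 summits. In windows of the same length 1 kb to each side of the 15 summits it was 3.33% (1 of 30), and at the canonical TSS of protein-coding genes 3.30% (653 of 19799). The hypoxia core without an E-box was found at 33.3% of the 15 summits (interval 15.2 to 58.3%), at 22.1% of summits near a protein-coding TSS and at 22.9% of canonical TSS windows. In the windows 1 kb away from the 15 summits it was at 16.7% (5 of 30). The interval for the 15 summits spans all of these background values for the core, but not those for the E-box at flanks and starts.

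The E-boxes at these promoters were centred a median of 10.5 bp from the summit (range 1.5 to 44.5 bp), with 5 of 9 within 15 bp. The median was 18.5 bp at all 793 E-box summits near a protein-coding TSS, of which 333 had an E-box within 15 bp. In 7 of the 9 E-boxes a C followed on one strand or the other (CACGTGC), as at HK2, PFKM, PFKFB3, ENO1, LDHB, PDK1 and ANKRD37. This was so for 52.8% of 861 E-boxes at all such summits. An A followed (CACGTGA) in 3 of 9, against 39.1%. The windows were rich in G and C, with a median of 71.3% over the 15 summits and 67.3% over the 1772.

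Summits were more frequent at genes with an E-box in the promoter, but many such genes had none. Within 500 bp of any annotated TSS, 27 of the 42 genes (64.3%) had an E-box, compared with 38.1% of all protein-coding genes. All 12 bound genes were among these 27, which gives 44.4% bound (interval 27.6 to 62.7%), against 16.0% of the 7688 protein-coding genes with such an E-box. The other 15 genes had no promoter E-box and none was bound (0 to 20.4%), against 3.42% of the 12474 protein-coding genes of this kind. The 15 genes with an E-box and no promoter summit were SLC2A3, GPI, PFKL, PFKP, ALDOA, ALDOC, TPI1, PFKFB4, PGK1, SLC16A3, CA9, BNIP3L, EGLN3, VHL and KDM3A. At the canonical TSS alone, 11 of 42 genes had an E-box, as had 3638 of the 20162 protein-coding genes. Of these 11 genes 8 were bound, against 22.1% of the 3638. Of the 31 genes without an E-box there, 4 were bound (12.9%, interval 5.13 to 28.9%), against 5.17% of 16524 protein-coding genes. The split with no bound gene lacking an E-box therefore held with all annotated TSS, not with the canonical TSS alone. A promoter E-box was also not always at the summit, with the nearest 1103.5 bp away at GAPDH and 1983.5 bp at PKM. The hypoxia core was too common to separate genes, since all 42 had one within 500 bp of a TSS, as had 18887 of the 20162.

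The number of annotated starts differed between the groups and gives a gene more chances to be counted as bound or as having an E-box. The 42 genes had a median of 10 annotated TSS, against 5 for all protein-coding genes. Among protein-coding genes with at least the median number of the 42, 621 of 5191 were bound (interval 11.1 to 12.9%), compared with 7 of 22 (16.4 to 52.7%) of the 42 genes in that range. With 1 canonical TSS per gene, 11 of the 42 genes (26.2%) and 6.71% of all protein-coding genes were bound.

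**Figure D4:**
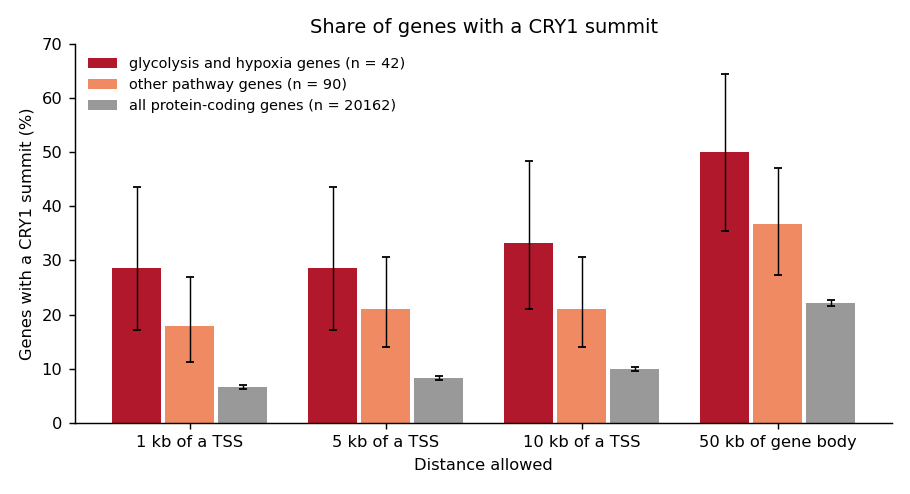
Percentage of genes with a CRY1 summit within the distance given on the horizontal axis, for the 42 glycolysis and hypoxia genes, 90 other genes of the same pathways and all 20162 protein-coding genes. Bars are percentages with Wilson 95% intervals, and the share at 5 kb is 28.6% for the 42 genes and 8.22% for all genes.

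Within 50 kb of the gene body, 21 of the 42 genes (interval 35.5 to 64.5%) had a summit, against 22.1% of all protein-coding genes. The 9 genes added by this wider limit were SLC2A3, HK1, GPI, PFKP, PFKFB4, ENO2, SLC16A3, CA9 and VEGFA, with 13 summits. At 11 of the 13 the nearest protein-coding TSS belonged to another gene. The GPI summit lay 47 bp from the TSS of PDCD2L, and the strongest of the 3 HK1 summits (fold enrichment 9.66) lay 35 bp from that of TACR2, with the other 2 (4.33 and 5.52) at 8945 and 9100 bp from the same gene. The 2 summits near PFKFB4 (3.52 and 7.52) were 945 and 1196 bp from SHISA5. The summit upstream of CA9, the carbonic anhydrase that serves as a standard mark of hypoxia, had a fold enrichment of 6.51 and was 253 bp from RMRP and 526 bp from CCDC107. Those near ENO2 (4.31 and 5.28) lay closer to PTPN6 and PHB2, and the one near SLC2A3 (5.01) closer to FOXJ2. Only the summits of PFKP, in its second intron (fold enrichment 5.69, no E-box or core), and of VEGFA, 12.6 kb from the gene body (5.69, with an E-box), had no nearer protein-coding TSS. Of the 13 summits, 7 held an E-box (53.8%, interval 29.1 to 76.8%), against 47.8% of all 2549 summits. Only a hypoxia core was held by 2 of the 13 (15.4%), against 19.6% of all summits.

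The summit 27.1 kb from the body of SLC16A3, the lactate exporter MCT4, was the strongest near any of the 42 genes. Its peak (chr17:80245647-80246693) was 1047 bp wide with a fold enrichment of 18.2 and ranked 16 of 2551. It lay between genes, 4605 bp from the start of the noncoding gene LINC01970 and 14509 bp from CSNK1D, which encodes a kinase of the clock proteins. Its window held 2 E-boxes, in capitals here.
SLC16A3 downstream summit, chr17:80246035-80246135, plus strand: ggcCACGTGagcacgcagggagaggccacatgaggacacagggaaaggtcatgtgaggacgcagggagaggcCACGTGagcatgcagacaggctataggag
No 32-base stretch of this window, or of the windows at the other 27 summits, had a second exact match in the genome. Repeats with mismatches are not seen by this count. The window printed above holds similar copies of a short unit in tandem, and both E-boxes lie in such copies. Which gene this site acts on was not measured.

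**Figure D5:**
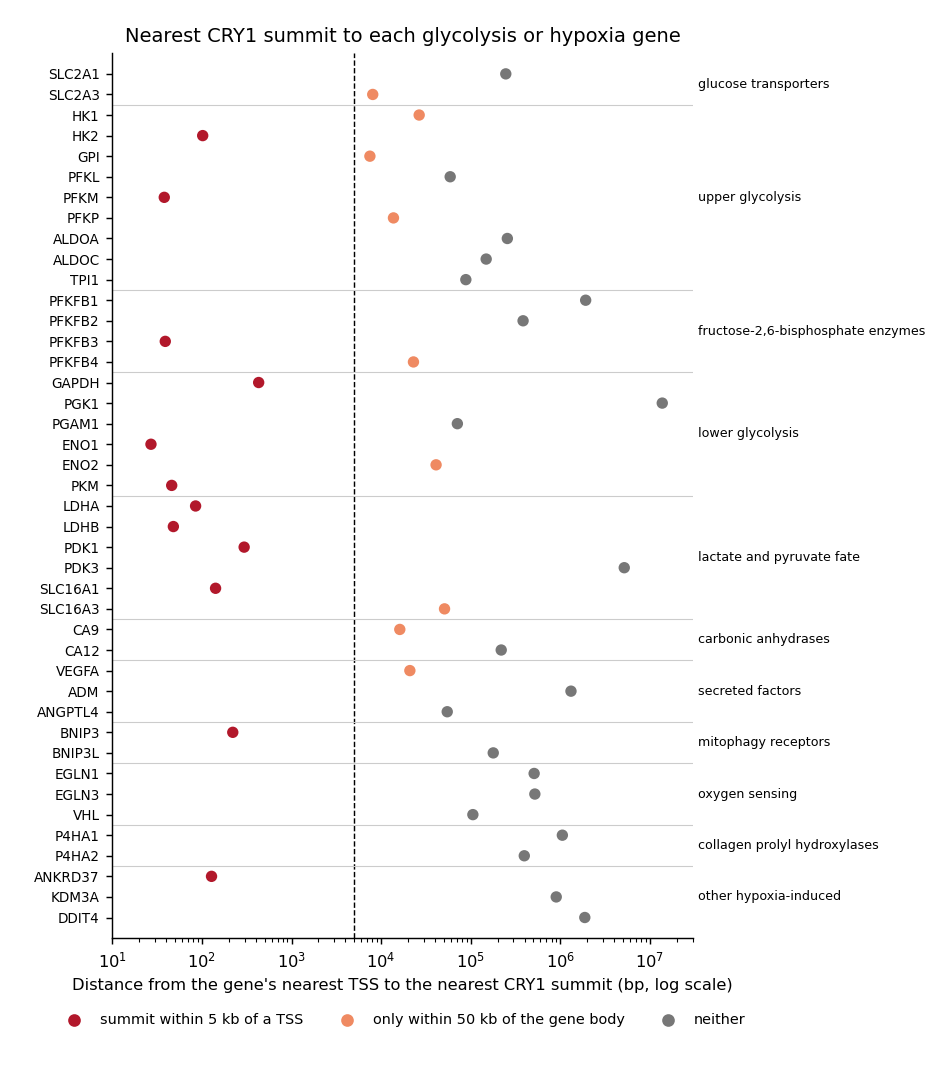
Distance in bp (log scale) from each of the 42 genes to its nearest CRY1 summit, grouped by role, with the 5 kb limit as a dashed line. The 12 bound genes lie at 27 to 430 bp and no gene lies between 430 and 7497 bp.

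The remaining 21 genes had no summit by either measure, with the nearest one a median of 384 kb from a TSS. The closest were ANGPTL4 at 54.7 kb, PFKL at 59.0 kb and PGAM1 at 70973 bp, of which ANGPTL4 was also the first gene outside the 50 kb limit. The last inside that limit was ENO2, at 39.4 kb from its body. The farthest were PGK1 at 13741 kb, PDK3 at 5174 kb and PFKFB1 at 1919 kb, all on chromosome X. Over all 42 genes the median was 52.9 kb, against 288 kb for protein-coding genes on chromosomes with a summit.

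A further 90 genes of the same pathways were examined in the same way, and 19 of them (21.1%, interval 14.0 to 30.6%) had a promoter summit, against 8.22% of all protein-coding genes. This list too was drawn up with earlier results known, so this interval and those of its groups cannot serve as tests. The number of annotated TSS was not taken into account for the 90 genes. Of the 9 genes of pyruvate entry into mitochondria, 3 were bound (33.3%, interval 12.1 to 64.6%), namely PDHB, PDP2 and PC. No promoter summit was found for PDHA1, DLAT, DLD, PDP1, MPC1 and MPC2. PDHB, a subunit of pyruvate dehydrogenase (fold enrichment 4.24), and PDP2, a phosphatase that reactivates it (5.74 and 7.53 at 2 summits), were bound with an E-box at each summit. PDK2, a kinase related to PDK1, had an E-box summit (5.96). Pyruvate carboxylase (PC) had 3 summits, the strongest at 11.8 with no E-box or core, and the other 2 lay closer to LRFN4. The muscle and fat glucose transporter SLC2A4 had 2 summits (5.24 and 6.18), the second with an E-box. Of the 27 other genes of glycolysis and gluconeogenesis 2 were bound, PDK2 and SLC2A4, a share of 7.41% that is close to that of all protein-coding genes. None of 7 pentose phosphate genes was bound (interval 0 to 35.4%).

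Genes that sense glucose were bound at 3 of 5 (interval 23.1 to 88.2%), against 8.22% of all protein-coding genes. TXNIP, which limits glucose uptake and is induced by glucose, had the strongest peak of the 90 (chr1:145437853-145439114, fold enrichment 19.2, rank 12 of 2551). The summit was 193 bp upstream. No E-box lay within 2 kb of this summit, and its window held 1 core on the opposite strand. ARRDC4, a relative of TXNIP under similar control, had 2 summits with an E-box (10.4 and 7.53), and MLXIP, a glucose-sensing transcription factor, had 1 (3.68). The bound share of 11 other genes of oxygen sensing was 9.09%, close to the 8.22% of all protein-coding genes. Only HIF1A, the oxygen-regulated subunit of the hypoxia-inducible factor, was bound among them. Its peak (chr14:62161532-62162267, 13.5, rank 84) held an E-box 5.5 bp from the summit and lay 272 bp upstream of the TSS. The TXNIP and HIF1A windows are shown because they were the strongest promoter summits of the 90 genes in the core and E-box classes. Capitals mark the core at TXNIP and the E-box at HIF1A.
TXNIP, chr1:145438247-145438347, plus strand: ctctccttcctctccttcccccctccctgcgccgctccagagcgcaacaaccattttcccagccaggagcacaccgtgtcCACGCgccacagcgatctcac
HIF1A, chr14:62161909-62162009, plus strand: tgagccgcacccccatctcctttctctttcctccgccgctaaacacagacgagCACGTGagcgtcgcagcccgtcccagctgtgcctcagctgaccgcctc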

How the data were processed

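ChIP-seq libraries of CRY1 (2 immunoprecipitates, 1 input) were grouped from their titles. As stated in the study's methods, the authors aligned reads to hg19 with bowtie2 and called peaks with MACS2 on combined replicates at q < 0.05. Handling of duplicates and of problem regions was not given in the sources used here. Per peak, the deposited list gives a score (the whole part of 10 times the −log10 q for all 2551 peaks), the fold enrichment as a linear ratio, and a −log10 q value, all made by the authors. Pooling leaves no replicate error, and the deposited list does not show the read counts or depth.

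Summits (peak start plus the deposited offset) were related to GENCODE release 44 lifted to GRCh37, the same assembly as hg19, with Python 3.11.15, pandas 2.3.3 and pysam 0.24.0. All transcripts were used, and the 2 peaks on unplaced contigs were left out. E-box and hypoxia core were searched on both strands 50 bp to each side of a summit, and E-boxes also 500 bp to each side of TSS. Counting steps were checked on planted summits and motifs. All genes with a summit by either distance were named, with the 3 nearest and 3 farthest of the rest, and all other pathway genes with a promoter summit. The annotation marks no canonical transcript for 281 protein-coding genes, 1 of the 42 among them. Both gene lists were chosen with earlier results of these data known, so no test was made on them. The sequences at 2 of the promoter summits are not reported here.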

Additional observations from a re-analysis of the deposited data

How the results depend on the processing

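In all, 42 values were recomputed under 14 alternative settings, of which 35 stayed within a tolerance that differed by kind of value. Counts were allowed to change by up to 1.5 times, the median fold enrichment by less than 1 SD and within the quartiles, and the share of all protein-coding genes only within its narrow 95% interval (7.85 to 8.61%). The number of bound genes was 12 at 1 kb, with coding transcripts, at q < 0.01, at peak midpoints and with nearest genes only. It was 14 at 10 kb, 11 with canonical transcripts and 10 at a fold enrichment of at least 5. The background share of protein-coding genes moved with the same choices, to 6.66% at 1 kb, 9.93% at 10 kb, 7.51% with coding transcripts, 6.71% with canonical transcripts and 5.49% at a fold enrichment of at least 5, each of which admits fewer or more sites by construction. The summits with only a hypoxia core fell from 5 to 2 at that fold enrichment, which removes the weaker peaks. Genes with a summit near the body numbered 16 within 10 kb and 26 within 100 kb, in place of 21. Taken at peak midpoints, 6 summits in place of 9 held an E-box. Peak strength as −log10 q had a median of 8.13, on another scale than fold enrichment. No paired analysis was possible because both replicates were merged before peak calling and nothing was tested. Replicates could not be left out for the same reason.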

Other observations

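Genes induced by hypoxia beyond the 42 were bound in a pattern that depended on the gene. Of 31 such genes, 10 (32.3%, interval 18.6 to 49.9%) had a CRY1 summit within 5 kb of a TSS. The share among all protein-coding genes was 8.22%, but these genes too were listed with earlier results known, so the interval cannot serve as a test. GBE1, the branching enzyme of glycogen synthesis, had the strongest peak (rank 120 of 2551 by fold enrichment), followed by LOXL2, which cross-links collagen (rank 205). The GBE1 summit held a hypoxia core, with the nearest E-box 361.5 bp away, whereas LOXL2 had an E-box 18.5 bp from its summit. MXI1, an antagonist of MYC, carried 5 summits (fold enrichment 5.01 to 8.71), of which 3 held a hypoxia core and none an E-box.

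The histone demethylases KDM4B (fold enrichment 4.11 and 6.69 at 2 summits) and KDM4C (4.24) each had an E-box summit, unlike KDM3A, whose nearest summit was 901 kb away. STC2, a secreted glycoprotein, had 2 summits at 1530 and 3637 bp upstream of its TSS (6.69 and 5.52). AK4 had one of the weakest peaks of the list (2.94, rank 2525), with an E-box. NDRG1 (4.76), RLF (5.27) and PLOD1 (3.05) completed the 10, and the PLOD1 summit lay closer to KIAA2013.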
